A study of Homo sapiens with 60 samples.

Results

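The high doses of 2 plant extracts were compared in A549, an established human cell line from a lung carcinoma of epithelial origin. Scutellariae Radix (SR) is the root of a skullcap, known for the flavones baicalin, baicalein and wogonin, and Coptidis Rhizoma (CR) is the rhizome of a goldthread, known for the alkaloid berberine. The comparison rests on 6 of the 60 labelled libraries of the series, chosen by their sample labels: 3 from cells exposed for 24 h to a hot-water extract of SR at 230 µg/mL and 3 from cells exposed for 24 h to a hot-water extract of CR at 130 µg/mL. Both were dosed below the 500 µg/mL that the design text gives as the usual top dose. For such extracts the high dose was the concentration called IC20 there, and the lower doses were dilutions of it. The medium doses were 46 µg/mL of SR and 26 µg/mL of CR, the low doses were 9.2 µg/mL of SR and 5.2 µg/mL of CR, and each dose had 3 libraries. The reference was 3 libraries from cells given DMSO alone for the same time, at 0.1% by the sample labels and 2% by the design text. The doses of the 2 extracts differ in µg/mL at every level, so each difference below is between doses matched by rank and not by mass.

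Library totals were 21032770 to 23939270 estimated counts in the SR high-dose group, 23979919 to 29138271 in the CR high-dose group and 19191920 to 25002638 in the vehicle group. The labels do not say that replicates came from separate cultures, so p-values measure the spread between these libraries. The first number of the sample code is 3 for all SR libraries, 4 for all CR libraries and A1 for vehicle, and what goes with it cannot be told apart from the extract except in the difference of dose effects. Pinelliae Tuber and Zizyphi Fructus extracts at 20 µg/mL carry the numbers 3 and 4 as well: between them edgeR called 0 of 17129 genes (0%), with 772 at an unadjusted p under 0.05 and 3 called by DESeq2. The summed level of 19 epithelial genes was 8751 to 9210 read counts scaled to library size (CPM) in SR libraries, 7023 to 7254 CPM in CR libraries and 8339 to 8407 CPM in vehicle libraries, and KRT8, a keratin of simple epithelia, held much of it. Markers of other cells were near 0: 10 blood cell genes summed to 1.80 to 2.89 CPM in SR, 2.68 to 3.88 CPM in CR and 3.20 to 3.60 CPM in vehicle libraries, and 10 fibroblast and endothelial genes to 5.80 to 6.93 CPM in SR, 5.01 to 6.49 CPM in CR and 6.56 to 7.40 CPM in vehicle libraries. Of 14 alveolar type II genes, 10 in SR, 9 in CR and 9 in vehicle libraries were under 1 CPM, the surfactant genes among them.

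Cells keep their sterol level through membrane-bound SREBP factors, which the protein INSIG1 holds in the endoplasmic reticulum when sterols are ample and which otherwise travel to the nucleus and switch on cholesterol and fatty acid genes. Misfolded protein in the endoplasmic reticulum starts the unfolded protein response, which raises chaperones, and several stresses meet in the integrated stress response, in which ATF4 raises genes of amino acid supply. The aryl hydrocarbon receptor (AHR) is a ligand-activated factor that induces cytochrome P450 genes and responds to many plant compounds.

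Single genes with the largest differences between SR and CR cells were lipid genes, some early response factors, AHR targets and a mitochondrial ribosomal RNA. At the high dose 3759 of 17129 tested genes (21.9%) differed between SR and CR cells (edgeR quasi-likelihood test, Benjamini-Hochberg adjusted p under 0.05), with 1907 (11.1%) higher and 1852 (10.8%) lower in SR. Of these, 143 were at least 2-fold higher and 126 at least 2-fold lower in SR cells. The 12 called genes with the largest positive difference included the lipid genes INSIG1, STARD4, SCD, MVK and MVD and the early response factors FOSB, FOS, NR4A1, NR4A2 and NR4A3. The 12 with the largest negative difference included the mitochondrial 12S ribosomal RNA MT-RNR1, the AHR targets CYP1A1 and AHRR, and UNC5B, GREM1, DGAT2, BEX2, AC145098.2, SLFN5, HK2 and NIBAN1. Against vehicle, 4101 genes (23.9%) were called in SR cells, 2232 (13%) higher and 1869 (10.9%) lower, and 6020 genes (35.1%) in CR cells, 3167 (18.5%) higher and 2853 (16.7%) lower. Both vehicle contrasts use the same 3 vehicle libraries. The shares in this paragraph are those to set beside the high-dose counts of the lists below. The median log2 difference over all tested genes was -0.01 for SR against CR and 0.01 for each extract against vehicle.

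**Figure D1:**
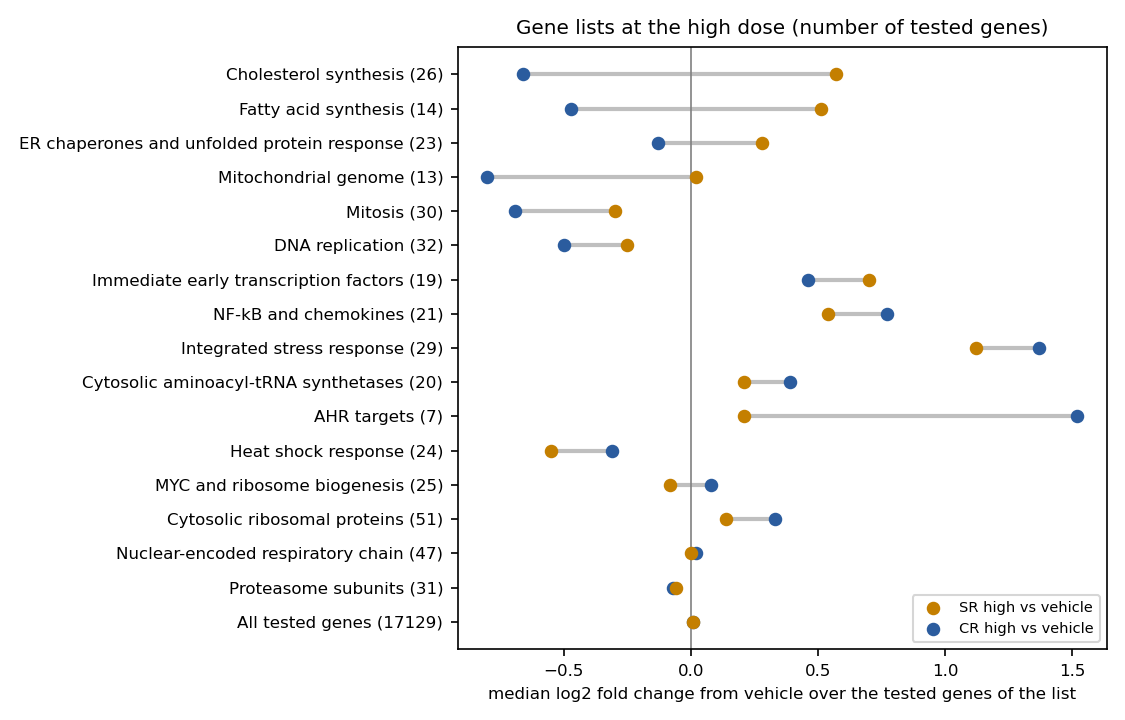
Median log2 fold change from vehicle of each gene list, SR high dose (orange) and CR high dose (blue), with the number of tested genes in parentheses and a grey bar joining the 2 values. Cholesterol synthesis lies at 0.57 in SR and -0.66 in CR, the integrated stress response lies to the right in both, and all tested genes lie at 0.01 in both.

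Opposite movement from vehicle was found in 152 genes (0.887% of those tested). In 123 of them (0.718%) SR was higher and CR lower than vehicle, and in 29 (0.169%) SR was lower and CR higher. Members of the gene lists, which were written with earlier results of these data known, made up 50 of the 152. The cholesterol list held 22 of these. The share of all tested genes on any list was not counted, so the 50 are a description. The change reached 0.5 on the log2 scale in both extracts for 23 genes, 20 of them up in SR, and reached 1 in both for genes that include INSIG1 and STARD4. These genes were chosen by the 2 vehicle contrasts, so their high-dose values are a description. Without vehicle replicate 1 the count was 99, of which 87 were up in SR and 12 down. Medium-dose SR against medium-dose CR used none of those libraries. There 93 of the 152 were called, against 19.7% of all tested genes, and 91 of the 93 had the sign of the high dose. Against vehicle at the medium dose edgeR called 0 genes in SR cells. In CR cells 81 of the 152 were called there with their high-dose sign, from the same vehicle libraries. The medium dose thus repeats the CR side only and cannot show SR moving the other way.

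Genes of cholesterol synthesis and uptake were higher in SR than in CR cells almost without exception, and the 2 extracts moved them to opposite sides of vehicle. Of 26 tested genes 23 were higher and 0 lower in SR than in CR, with a median log2 difference of 1.09. Against vehicle 24 rose and 0 fell in SR cells (median 0.57), and 2 rose and 23 fell in CR cells (median -0.66). The genes not called between the extracts were GGPS1 (-0.07), PMVK (0.24) and TM7SF2 (0.25), and GGPS1 and TM7SF2 were the 2 that rose in CR cells, by 0.28 and 0.29. They are named for their exception, after their values were seen.

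Regulators and carriers of sterol were among the genes with the widest gaps. INSIG1, the retention protein described above, had 102, 95.0 and 101 CPM in SR, 15.7, 14.0 and 15.0 CPM in CR and 35.6, 36.1 and 39.2 CPM in vehicle libraries. Every SR library stood above every vehicle library and every CR library below, with no overlap. The log2 difference between SR and CR was 2.74 ± 0.06 (SE; 6.69-fold, adjusted p = 6.91e-37, edgeR). STARD4, a cytosolic sterol carrier, had 58.4, 54.8 and 58.4 CPM in SR, 14.3, 13.0 and 12.4 CPM in CR and 28.3, 27.7 and 25.9 CPM in vehicle libraries, again with no overlap.

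Enzymes along the pathway followed with smaller gaps. HMGCS1, which makes the precursor of mevalonate, had 291, 302 and 296 CPM in SR, 107, 116 and 112 CPM in CR and 199, 197 and 196 CPM in vehicle libraries. Its log2 change from vehicle was 0.59 in SR and -0.82 in CR. MVK (mevalonate kinase), MVD (mevalonate decarboxylase), DHCR7 (the last reductase of the pathway) and LSS (lanosterol synthase) were higher in SR than in CR by 1.83, 1.78, 1.62 and 1.51 on the log2 scale. Each of the 4 rose in SR cells, by 0.90, 0.99, 0.72 and 0.77, and each fell in CR cells, by 0.92, 0.79, 0.90 and 0.73. SREBF2, the gene of the factor SREBP-2 itself, named after its values were seen, was 1.07 higher in SR than in CR, at 0.56 over vehicle in SR and -0.52 in CR.

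Among 19 cholesterol genes with a promoter in the RefSeq table (GRCh38.p14; 250 bases before to 50 after the start), the sterol element TCACNCCAC, searched on both strands, was found in 1, SREBF2, against 1.15% of 27305 promoters. The 250 bases before its start (chr22:41832855-41833104, plus strand) are shown because the gene is both a regulator and a member of the list. Capitals mark the element, whose first base lies at -133 from the start.
SREBF2: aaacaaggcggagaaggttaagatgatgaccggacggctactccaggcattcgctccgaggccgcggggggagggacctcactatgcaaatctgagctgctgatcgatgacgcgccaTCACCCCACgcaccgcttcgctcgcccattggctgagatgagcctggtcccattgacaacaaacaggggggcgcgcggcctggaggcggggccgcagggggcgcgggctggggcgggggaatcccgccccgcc
A match is a description of the letters and not evidence of binding.

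Fatty acid genes had the same arrangement. Of 14 tested, 13 were higher and 0 lower in SR than in CR (median 0.85); 11 rose and 0 fell in SR cells against vehicle (median 0.51), and 1 rose and 11 fell in CR cells (median -0.47). SCD, the desaturase that makes oleate, had 1801, 1947 and 1797 CPM in SR, 460, 436 and 457 CPM in CR and 946, 944 and 904 CPM in vehicle libraries. Its log2 difference between SR and CR was 2.04 ± 0.10 (adjusted p = 3.4e-22, edgeR), almost evenly divided around vehicle at 0.99 and -1.05. FADS2, the first desaturase of polyunsaturated fatty acid synthesis, had 566, 611 and 588 CPM in SR, 215, 212 and 212 CPM in CR and 398, 387 and 397 CPM in vehicle libraries. SREBF1, the gene of the SREBP-1 factors, had 241, 265 and 260 CPM in SR, 118, 108 and 114 CPM in CR and 147, 152 and 148 CPM in vehicle libraries, so its rise in SR (0.78) was larger than its fall in CR (-0.40). LPIN1, a phosphatidate phosphatase, was 1.42 higher in SR than in CR and ACSL3, which activates long-chain fatty acids, 1.01 higher. Opposite movement from vehicle was met by 8 of the 14: ACSL3, ELOVL6, FADS1, FADS2, FASN, LPIN1, SCD and SREBF1. Of the other 6, ELOVL5, ACLY and ACACA fell in CR cells and were not called in SR cells, and ACSS2 and ME1 rose in SR cells and were not called in CR cells. MID1IP1, an activator of acetyl-CoA carboxylase, rose by 0.74 in SR and by 0.55 in CR. These 6 are named after their values were seen. LPCAT3, a phospholipid-remodelling enzyme of the liver X receptor list, also stood on opposite sides of vehicle, at 0.28 in SR and -0.62 in CR.

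**Figure D2:**
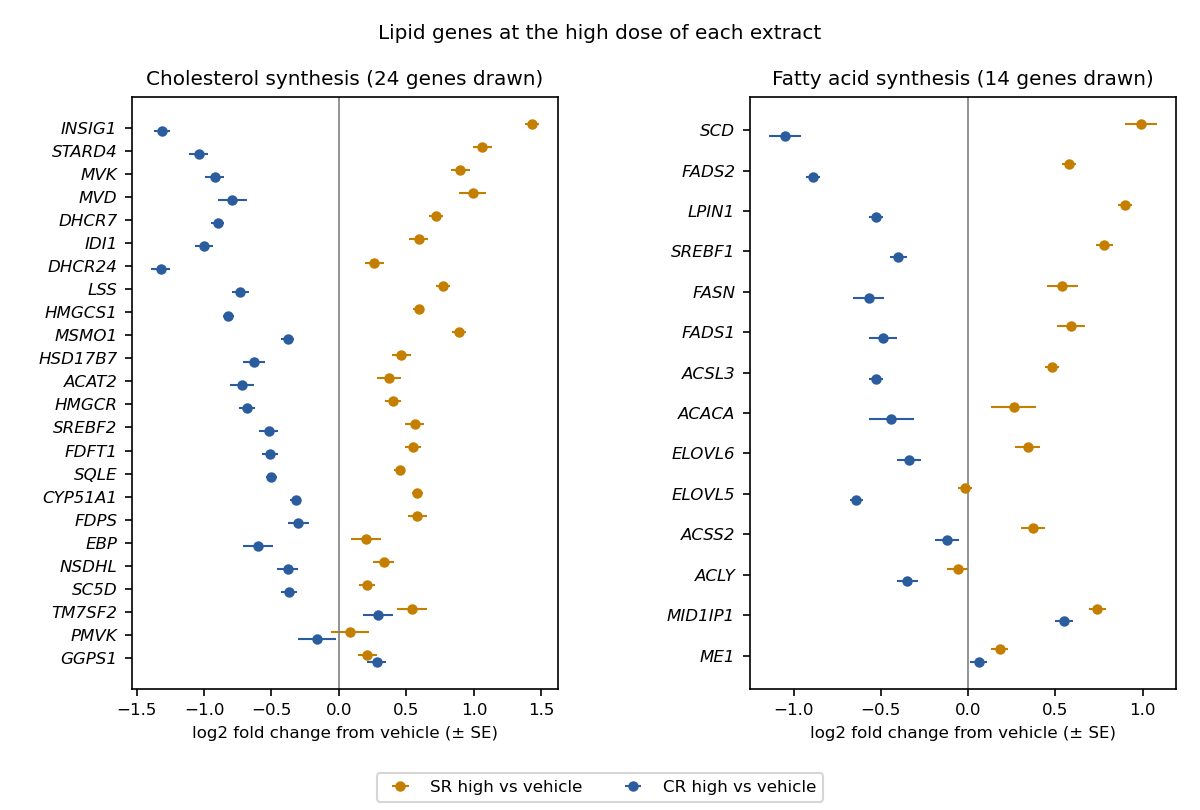
Log2 fold change from vehicle (± SE) of tested genes of cholesterol synthesis (left, 24 of 26 drawn) and fatty acid synthesis (right), SR high dose in orange and CR high dose in blue. Points of the 2 extracts lie on opposite sides of 0 for most genes, such as 0.99 and -1.05 for SCD, while GGPS1, TM7SF2, MID1IP1 and ME1 have both points to the right.

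Immediate early transcription factors, whose genes are switched on within minutes of many stimuli, did not move as one block. Of 19 tested, 9 were higher and 3 lower in SR than in CR (median 0.07), against 11.1% and 10.8% of all tested genes. Against vehicle 15 rose and 0 fell in SR cells, where 13% and 10.9% of all tested genes did. In CR cells 12 rose and 5 fell, where 18.5% and 16.7% of all tested genes did. The orphan nuclear receptor NR4A1 had 49.8, 51.0 and 54.1 CPM in SR, 10.3, 10.3 and 10.7 CPM in CR and 38.1, 34.4 and 38.5 CPM in vehicle libraries. Its log2 difference between SR and CR, 2.31 ± 0.06 (adjusted p = 5.25e-32, edgeR), came mostly from the fall in CR cells (-1.83), with a smaller rise in SR cells (0.48). NR4A3 was 2.23 higher in SR than in CR, at -2.18 against vehicle in CR and 0.05 (adjusted p = 0.851) in SR. FOSB, a partner of JUN in AP-1, had the other balance: 5.75, 6.04 and 5.93 CPM in SR, 0.884, 0.961 and 0.789 CPM in CR and 1.37, 1.53 and 1.50 CPM in vehicle libraries. FOS had 5.51, 6.37 and 6.47 CPM in SR, 1.87, 1.44 and 1.79 CPM in CR and 2.91, 2.86 and 3.87 CPM in vehicle libraries, with no overlap between groups. EGR1 rose in both extracts, by 2.62 in SR and 1.63 in CR. FOSL1, another AP-1 member, ran the other way and was 0.90 lower in SR than in CR, although it rose in both, by 0.70 and 1.60.

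Genes of NF-kB and chemokines mostly rose in both extracts. Of 21 tested, 14 rose and 0 fell in SR cells, and 15 rose and 2 fell in CR cells. Over all tested genes 13% rose and 10.9% fell in SR cells, and 18.5% rose and 16.7% fell in CR cells. Between SR and CR 7 members were higher and 4 lower in SR (median 0.07, range -0.77 to 1.39), against 11.1% and 10.8% of all tested genes. PTGS2, the inducible cyclooxygenase, was the one list member on opposite sides of vehicle. It had 42.7, 43.0 and 42.3 CPM in SR, 17.6, 14.5 and 16.6 CPM in CR and 20.3, 19.5 and 23.4 CPM in vehicle libraries, a log2 difference of 1.39 ± 0.12 between SR and CR (adjusted p = 3.38e-13, edgeR). CXCL8, a neutrophil chemokine, rose by 2.67 in SR and 2.19 in CR.

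Chaperones of the endoplasmic reticulum and other genes of the unfolded protein response were mostly higher in SR than in CR cells. Of 23 tested genes 17 were higher and 0 lower in SR than in CR (median 0.53); 17 rose and 0 fell against vehicle in SR cells, and 7 rose and 10 fell in CR cells. HSP90B1 (GRP94, an abundant chaperone of the compartment) had 947, 902 and 968 CPM in SR, 602, 596 and 588 CPM in CR and 783, 783 and 774 CPM in vehicle libraries. PDIA4, a protein disulfide isomerase, had 293, 281 and 276 CPM in SR, 167, 170 and 164 CPM in CR and 227, 233 and 241 CPM in vehicle libraries. Both had SR above and CR below vehicle in every library. CALR, a lectin chaperone, had 465, 450 and 481 CPM in SR, 248, 256 and 249 CPM in CR and 463, 451 and 464 CPM in vehicle libraries, so SR and vehicle overlapped and CR alone was low. Opposite movement was met by 7 members: CRELD2, DNAJB11, HSP90B1, MANF, PDIA3, PDIA4 and PDIA6.

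HSPA5 (BiP, the master chaperone of the response) had 995, 957 and 1020 CPM in SR, 809, 825 and 810 CPM in CR and 598, 612 and 624 CPM in vehicle libraries, and DNAJB9, its co-chaperone, had 34.3, 32.7 and 36.5 CPM in SR, 17.3, 16.9 and 17.2 CPM in CR and 12.8, 14.9 and 13.7 CPM in vehicle libraries. Both rose with each extract and rose more with SR, by 0.28 ± 0.05 (adjusted p = 8.33e-06, edgeR) for HSPA5 and 1.01 ± 0.09 (adjusted p = 2.52e-13) for DNAJB9. ERN1, the sensor kinase, rose by 1.30 in SR and 1.36 in CR, and XBP1, the factor its nuclease activates, by 0.96 and 0.95; both are named after their values were seen. The endoplasmic reticulum stress element, CCAAT and CCACG with 9 bases of any kind between them, searched on both strands, was in 6 of 22 promoters of the list (27.3%: CALR, CANX, CRELD2, HSP90B1, HSPA5 and XBP1) and in 0.0806% of 27305 promoters; this motif was added after the data were seen. It was found in promoters of genes that rose in both extracts and of genes that moved apart, and 1 promoter of each kind is shown. Capitals mark the element, first base at -66 in HSPA5 (chr9:125241344-125241593, minus strand) and at -80, on the reverse strand, in CRELD2 (chr22:49918384-49918633, plus strand).
HSPA5: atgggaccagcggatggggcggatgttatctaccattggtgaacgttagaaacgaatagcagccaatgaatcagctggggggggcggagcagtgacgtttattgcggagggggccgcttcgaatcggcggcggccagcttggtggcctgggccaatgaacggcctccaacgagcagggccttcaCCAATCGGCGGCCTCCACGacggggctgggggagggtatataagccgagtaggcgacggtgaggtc
CRELD2: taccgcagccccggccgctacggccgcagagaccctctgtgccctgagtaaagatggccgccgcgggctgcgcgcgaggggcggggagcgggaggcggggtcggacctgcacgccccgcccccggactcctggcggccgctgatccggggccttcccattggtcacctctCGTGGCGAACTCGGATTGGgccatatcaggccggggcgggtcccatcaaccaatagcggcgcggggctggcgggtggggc

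Genes lower than vehicle in SR and higher in CR were fewer and changed less. Of the 29, the 10 with the largest smaller change were DGAT2, AC145098.2, SLCO2B1, TIMP3, OTULINL, MEX3A, MYEOV, LIMA1, EFR3B and FNBP1. DGAT2, which makes the final bond of triglycerides, had 1.74, 1.51 and 1.75 CPM in SR, 4.93, 5.01 and 4.98 CPM in CR and 2.58, 1.88 and 2.74 CPM in vehicle libraries, and thus ran against the other lipid genes. SLCO2B1, an organic anion transporter, had 2.50, 2.97 and 1.92 CPM in SR, 5.68, 6.01 and 5.44 CPM in CR and 4.36, 3.61 and 3.98 CPM in vehicle libraries. TIMP3, an inhibitor of matrix metalloproteinases, had 5.94, 6.79 and 6.22 CPM in SR, 11.8, 11.6 and 11.3 CPM in CR and 9.35, 7.80 and 7.13 CPM in vehicle libraries. In each of these 3 genes all SR libraries lay below and all CR libraries above the vehicle libraries. MYEOV, at a higher level, moved by -0.28 in SR and 0.28 in CR. In the list of ribosome biogenesis NOLC1, a nucleolar chaperone, was the one member of this kind, at -0.13 in SR and 0.13 in CR.

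AHR targets were raised by CR far more than by SR. Of 7 tested genes 0 were higher and 6 lower in SR than in CR (median -1.08). Against vehicle 6 rose in CR cells (median 1.52) and 3 in SR cells (median 0.21), and none was called lower in either. The 1 not called in CR cells stood at -0.54 there, and all 7 had an unadjusted p under 0.05 (edgeR). In SR cells the lowest value was -0.37. CYP1A1, the classical AHR-induced P450, had 1.08, 1.60 and 1.21 CPM in SR, 8.36, 6.45 and 7.06 CPM in CR and 0.914, 0.863 and 1.24 CPM in vehicle libraries. SR and vehicle overlapped (0.39, adjusted p = 0.276) and all CR libraries stood apart, with a log2 difference of -2.49 ± 0.19 between SR and CR (5.61-fold lower in SR; adjusted p = 9.67e-15, edgeR). CYP1B1 had 87.8, 89.5 and 82.0 CPM in SR, 194, 199 and 192 CPM in CR and 56.4, 54.7 and 53.3 CPM in vehicle libraries, so here SR also rose (0.66), less than CR (1.83). TIPARP, an AHR-induced repressor of the receptor, followed CYP1B1, with 0.70 in SR and 1.78 in CR. AHRR, a further repressor, was 1.31 lower in SR than in CR.

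Integrated stress response genes rose with both high doses, and 16 of the 29 differed between the extracts, mostly with lower levels in SR. Against vehicle 27 of 29 tested genes rose and 0 fell in SR cells (median 1.12), and 27 rose and 1 fell in CR cells (median 1.37); between SR and CR 3 were higher and 13 lower (median -0.12, range -0.53 to 0.60), against 11.1% and 10.8% of all tested genes. TRIB3, a pseudokinase induced by ATF4, had 351, 324 and 376 CPM in SR, 331, 323 and 336 CPM in CR and 61.7, 64.2 and 69.6 CPM in vehicle libraries, and SR and CR overlapped (0.09 ± 0.06, adjusted p = 0.369, edgeR). DDIT3 (CHOP, a factor linked to cell death under stress) had 49.8, 44.8 and 52.5 CPM in SR, 39.6, 37.3 and 39.1 CPM in CR and 7.15, 8.82 and 9.30 CPM in vehicle libraries. It was called between the extracts at 0.34 ± 0.11 (adjusted p = 0.0174), a call that was lost without SR replicate 1, SR replicate 3 or CR replicate 2. ATF3 was 0.60 higher in SR, and SESN2 was 0.53 lower, as were CEBPG (0.32 lower) and PSAT1, of serine synthesis (0.26 lower). ASNS, asparagine synthetase, had 280, 260 and 284 CPM in SR, 336, 339 and 344 CPM in CR and 123, 129 and 126 CPM in vehicle libraries.

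Of 20 cytosolic aminoacyl-tRNA synthetases, which load amino acids onto tRNA, 0 were higher and 13 lower in SR than in CR. GARS1 and SARS1 were 0.23 and 0.33 lower in SR, and both rose in each extract. Of 12 amino acid transporters 2 were higher and 3 lower in SR than in CR (median -0.05). Among all tested genes 11.1% were higher and 10.8% lower. SLC3A2, the shared heavy chain, was 0.40 higher in SR, and SLC1A4 and SLC6A9 were 0.34 and 0.48 lower. The C/EBP-ATF element TGATGNAAN, searched on both strands, was in 4 of 24 promoters of the stress list (16.7%: ASNS, ATF3, CHAC1 and FGF21), against 3.67% of 27305 promoters. Larger shares held it among the synthetases (6 of 16 promoters, 37.5%) and the amino acid transporters (3 of 11, 27.3%). The promoter of ASNS (chr7:97872409-97872658, minus strand) is shown since it rose with both extracts, by 1.12 in SR and 1.43 in CR; capitals mark the element, first base at -68.
ASNS: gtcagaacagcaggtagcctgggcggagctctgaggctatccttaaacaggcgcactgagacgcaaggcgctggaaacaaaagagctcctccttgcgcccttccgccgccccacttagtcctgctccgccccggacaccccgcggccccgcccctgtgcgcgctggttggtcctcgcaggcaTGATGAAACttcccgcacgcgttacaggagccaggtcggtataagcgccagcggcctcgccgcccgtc

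Changes in CR cells were called from vehicle at the medium dose, at which edgeR called none in SR cells; the low doses were not tested against vehicle, and their values are a description. At the medium dose 3979 genes (23.2%) were called in CR cells against vehicle and 0 (0%) in SR cells, with 722 SR genes at an unadjusted p under 0.05 and 3 called by DESeq2. TRIB3 in SR libraries had 70.2, 63.5 and 67.3 CPM at the low dose and 66.7, 64.3 and 65.9 CPM at the medium dose, values that overlap the vehicle libraries and lie far below those of the high dose. In CR libraries it was already at 173, 172 and 180 CPM at the low dose and 274, 249 and 254 CPM at the medium dose. ASNS in CR libraries was at 263, 253 and 275 CPM at the low dose and 318, 318 and 313 CPM at the medium dose, near its high-dose level. Over the whole stress list 26 of 29 genes rose in CR cells at the medium dose (median 1.02), while the median in SR cells was 0.01, with 0 of 29 called and 0 at an unadjusted p under 0.05 (edgeR).

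INSIG1 left the vehicle range at a lower dose step in CR than in SR libraries, and in the opposite direction. In SR libraries it had 41.1, 35.8 and 40.0 CPM at the low dose and 40.4, 36.4 and 37.8 CPM at the medium dose, which overlap the vehicle libraries and lie far below the high dose. In CR libraries it had 25.3, 26.7 and 26.8 CPM at the low dose and 20.0, 20.1 and 20.5 CPM at the medium dose, lower at each step. NR4A1 in CR libraries had 26.5, 27.1 and 25.6 CPM at the low dose and 16.8, 16.4 and 14.5 CPM at the medium dose. CYP1A1 in CR libraries had 2.65, 1.66 and 1.87 CPM at the low dose and 3.69, 3.70 and 4.78 CPM at the medium dose, while SR libraries stayed between 0.955 and 1.68 CPM at both. The cholesterol list was higher in SR than in CR at the medium dose in 22 of 26 genes (median 0.40), where 9.56% of all tested genes were higher, and at the low dose in 17 (median 0.30), where 3.27% were, with 0 lower at either dose.

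**Figure D3:**
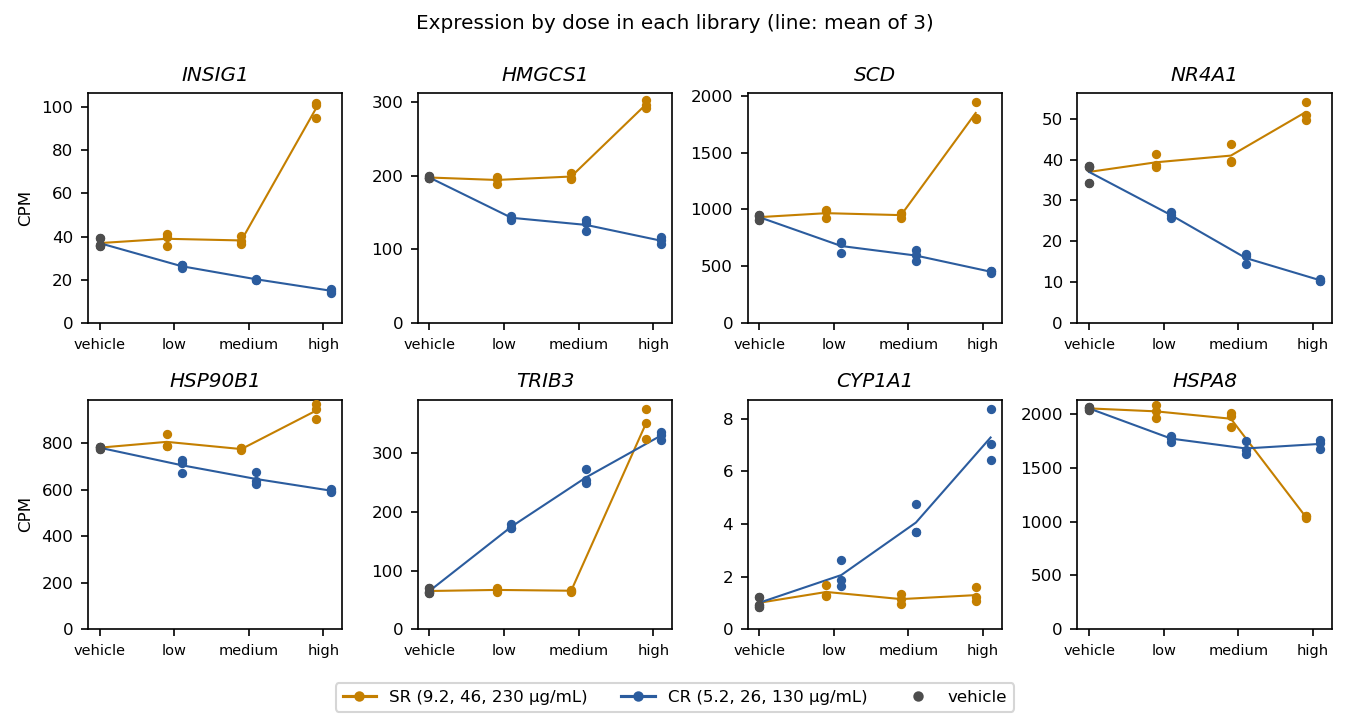
CPM of 8 genes in each library at vehicle, low, medium and high dose (steps of dose, set slightly apart sideways), SR in orange, CR in blue and vehicle in grey, with lines through the means of 3 libraries. SR lines stay near vehicle up to the medium dose and then turn, upward for INSIG1, HMGCS1, SCD, NR4A1, HSP90B1 and TRIB3 and downward for HSPA8, while CR lines move from the low dose on.

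Between the extracts 3374 genes (19.7%) were called at the medium dose and 1108 (6.47%) at the low dose. Of the 3759 genes called at the high dose, 1711 were also called at the medium and 656 at the low dose. The low-dose count fell to 637 without SR low replicate 2, 712 without SR low replicate 3 and 654 without CR low replicate 3, and to 287 in a fit on those 6 libraries alone. Log2 differences at the low dose went with transcript length (Spearman 0.292 across 17007 genes, 0.213 at the medium and -0.0384 at the high dose). The same measure was 0.231 for CR high against CR low, -0.00743 for SR high against SR low, -0.234 for the difference of these dose effects and 0.332 for Pinelliae Tuber against Zizyphi Fructus. Within a library, log2 CPM regressed on log2 length had a slope of 0.907 in CR low replicate 3 and 0.97 to 1.03 in the other low-dose SR and CR libraries, and its part in these results was not tested beyond the length covariate.

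Set against its own low dose, each extract shares no library with the other, and the code number cancels in the difference of the 2 dose effects. SR high against SR low gave 3498 called genes (20.4%), 1894 higher and 1604 (9.36%) lower, and CR high against CR low gave 4357 (25.4%), 2250 higher and 2107 lower. The difference of these effects, SR minus CR, was called in 1556 genes (9.08%), 900 positive and 656 (3.83%) negative; with a covariate for transcript length the count was 2536, and SR high against SR low gave 5331. Without CR low replicate 3 the difference was called in 1172 genes and CR high against CR low in 3075. Cholesterol genes were positive in 23 of 26 (median 0.85) and fatty acid genes in 12 of 14 (median 0.60), with 0 negative. Integrated stress genes were positive in 24 and negative in 1 of 29 (median 0.63), heat shock genes positive in 1 and negative in 16 of 24 (median -0.34), and AHR targets negative in 4 of 7 (median -0.99). INSIG1 had 2.17 in this difference, against 2.74 at the high dose, whereas TRIB3 had 1.47 ± 0.09 (adjusted p = 6.72e-18, edgeR) with overlapping high-dose values.

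Opposite movement from the own low dose was met by 157 genes (0.917%), 114 (0.666%) up in SR and 43 (0.251%) down. Of these, 87 were also opposite against vehicle, 57.2% of the vehicle list and 55.4% of the low-dose list, and both lists use the same high-dose libraries. Of the cholesterol genes 20 were opposite in both ways.

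**Figure D4:**
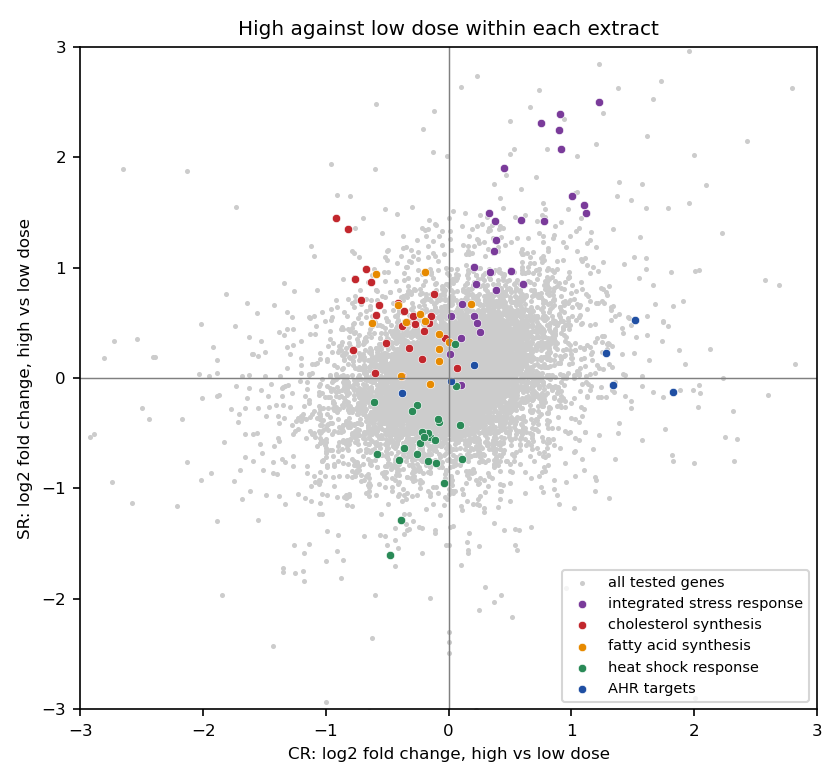
Log2 fold change of the high against the low dose for every tested gene, SR on the vertical axis and CR on the horizontal axis, with 5 lists coloured; 58 genes lie outside the axes, which end at -3 and 3. Cholesterol (red) and fatty acid (orange) genes lie mostly at the upper left, integrated stress genes (purple) in the upper right, heat shock genes (green) mostly below 0 on the SR axis, and 4 of the 7 AHR targets (blue) far to the right.

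Heat shock genes fell in both extracts and fell further with SR. Of 24 tested, 0 were higher and 16 lower in SR than in CR (median -0.20); against vehicle 1 rose and 19 fell in SR cells (median -0.55), and 1 rose and 18 fell in CR cells (median -0.31). HSPA8, the constitutive cytosolic HSP70, had 1050, 1036 and 1054 CPM in SR, 1726, 1678 and 1759 CPM in CR and 2035, 2062 and 2055 CPM in vehicle libraries. The 3 groups did not overlap, and the log2 difference between SR and CR was -0.72 ± 0.04 (adjusted p = 3.21e-21, edgeR). HSPA1A, an inducible HSP70, had 108, 92.2 and 97.8 CPM in SR, 191, 176 and 189 CPM in CR and 310, 317 and 345 CPM in vehicle libraries. HSPA1B is nearly identical in sequence to HSPA1A, so the division of reads between them is uncertain, and it was 0.74 lower in SR than in CR. HSPH1, a nucleotide exchange factor of HSP70, fell by 0.87 in SR and 0.40 in CR. The member that rose in both, named after its values were seen, was HSF1, the factor that controls the response, at 0.38 in SR and 0.44 in CR. At the medium dose the order was the reverse: 12 heat shock genes were higher and 1 lower in SR than in CR (median 0.18), where 9.56% of all tested genes were higher and 10.1% lower.

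Proliferation genes fell in both extracts and fell further with CR. Of 30 mitosis genes, 24 fell in SR cells against vehicle (median -0.30) and all 30 fell in CR cells (median -0.69). Between the extracts 27 were higher and 0 lower in SR than in CR (median 0.36). Over all tested genes 10.9% fell in SR cells and 16.7% in CR cells, and 11.1% were higher and 10.8% lower in SR than in CR. PLK1, a mitotic kinase, had 156, 154 and 154 CPM in SR, 122, 125 and 120 CPM in CR and 202, 194 and 202 CPM in vehicle libraries. CCNA2, cyclin A2, had 86.8, 80.3 and 82.0 CPM in SR, 60.4, 62.8 and 62.2 CPM in CR and 104, 105 and 101 CPM in vehicle libraries. In both genes SR lay between CR and vehicle without overlap. MKI67, the Ki-67 antigen, spread more, with a mean of 265 ± 46.1 CPM in SR, 224 ± 4.58 CPM in CR and 495 ± 60.3 CPM in vehicle libraries (SD, n = 3 each), and SR and CR were not called apart (0.25 ± 0.20, adjusted p = 0.438, edgeR). Of 32 DNA replication genes 22 fell in SR cells and 30 in CR cells, and 22 were higher and 1 lower in SR than in CR. RRM2, a ribonucleotide reductase subunit, was 0.52 higher in SR, and the lower one was CCNE1, cyclin E1 (-0.34). In these bulk samples fewer cells of a type and less RNA per cell cannot be told apart.

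Transcripts of the mitochondrial genome separated CR from both SR and vehicle. MT-RNR1, the 12S ribosomal RNA, had 1948, 2155 and 2278 CPM in SR, 21124, 23806 and 21963 CPM in CR and 1581, 1438 and 1581 CPM in vehicle libraries. All CR libraries stood far above the others, with a log2 difference of -3.39 ± 0.10 between SR and CR (10.5-fold lower in SR; adjusted p = 3.63e-31, edgeR). The rise was present at the low dose of CR (34062, 32574 and 26773 CPM) and at the medium dose (39577, 33764 and 35644 CPM), both above the high dose. MT-RNR2, the 16S ribosomal RNA, named after its values were seen, had 28118, 31012 and 31150 CPM in SR, 44361, 49631 and 44736 CPM in CR and 23291, 21450 and 22735 CPM in vehicle libraries. Both ribosomal RNAs also rose in SR cells against vehicle, MT-RNR1 by 0.47 (adjusted p = 6.33e-05, edgeR) and MT-RNR2 by 0.42 (adjusted p = 4.29e-05, edgeR). In CR cells the rises were 3.86 and 1.04.

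The 13 mitochondrial mRNAs, which encode respiratory chain subunits, went the other way: all 13 were higher in SR than in CR (median 0.84), 12 fell in CR cells against vehicle (median -0.80), and in SR cells 1 rose, MT-CYB (0.32). MT-CO1, of cytochrome oxidase, had 15361, 16366 and 14964 CPM in SR, 8458, 7971 and 7445 CPM in CR and 17234, 16394 and 16753 CPM in vehicle libraries. MT-CYB had 5868, 6215 and 5586 CPM in SR, 3154, 3153 and 2915 CPM in CR and 4556, 4295 and 5343 CPM in vehicle libraries. Across CR doses some mRNAs changed sides: MT-ND5, named after its values were seen, stood at 2.50, 0.83 and -0.84 over vehicle on the log2 scale at the low, medium and high dose, and MT-CYB at 1.77, 1.22 and -0.62. Of 47 nuclear genes of the respiratory chain 0 were called between SR and CR by edgeR and 0 by DESeq2, with 4 at an unadjusted p under 0.05 (median 0.04). The mitochondrial genome took 10.5 to 11.3% of counts in SR, 10.4 to 11.4% in CR and 9.44 to 10.1% in vehicle libraries, and 14.8 to 20.1% in low-dose CR libraries. Nuclear copies of mitochondrial sequence make the assignment of such reads uncertain, and the way in which mRNA was enriched was not given in the sources used here.

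**Figure D5:**
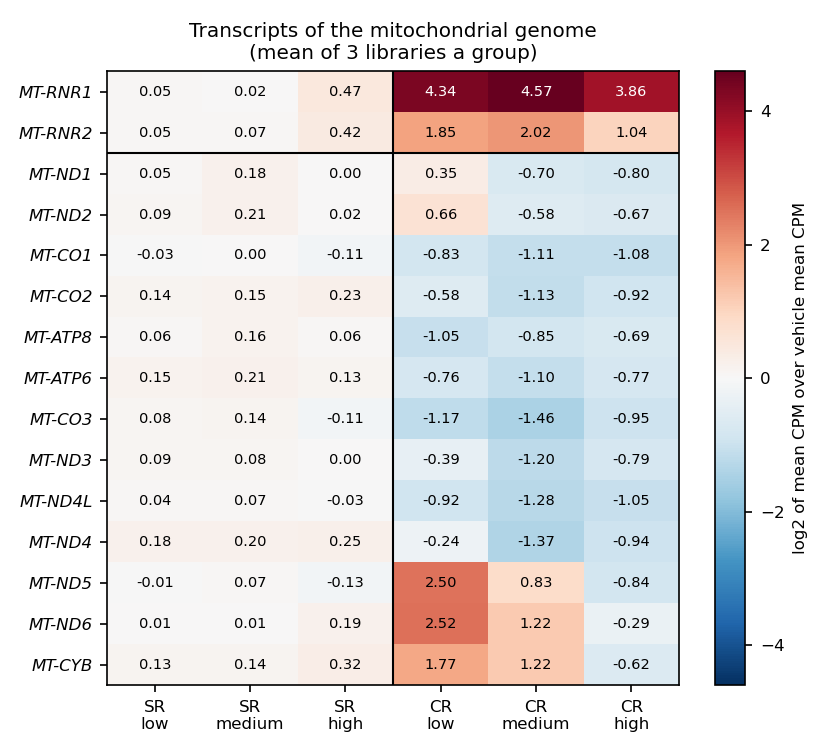
Log2 of the mean CPM over the vehicle mean for the 2 ribosomal RNAs (top) and 13 mRNAs of the mitochondrial genome, at 3 doses of SR and of CR (3 libraries each). SR columns stay between -0.13 and 0.47, while in CR columns MT-RNR1 reaches 4.57 and MT-ND5 passes 2.50, 0.83 and -0.84 from low to high dose.

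Liver-type secreted genes were higher in SR where they were called, and most called matrix genes were lower in SR. The shares over all tested genes were 11.1% higher and 10.8% lower in SR than in CR. Of 17 fibrinogen, complement and liver genes 6 were higher and 0 lower in SR than in CR. FGB, the fibrinogen beta chain, had 128, 130 and 136 CPM in SR, 48.9, 45.8 and 46.0 CPM in CR and 158, 156 and 165 CPM in vehicle libraries, a fall of 0.28 with SR and of 1.77 with CR on the log2 scale. Of 24 matrix genes 2 were higher and 10 lower in SR than in CR (median -0.19). COL5A1, a fibrillar collagen chain, had 89.1, 99.2 and 80.8 CPM in SR, 136, 132 and 131 CPM in CR and 120, 124 and 110 CPM in vehicle libraries. Against this direction TGM2, transglutaminase 2, was 0.87 higher in SR and on opposite sides of vehicle (0.16 in SR and -0.71 in CR). GREM1, a secreted antagonist of BMPs, had 12.5, 12.6 and 12.7 CPM in SR, 38.2, 43.4 and 42.8 CPM in CR and 5.32, 4.43 and 5.37 CPM in vehicle libraries.

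The counts of this paragraph stand beside 11.1% of all tested genes higher and 10.8% lower in SR than in CR. Of 21 glycolysis genes 8 were higher and 5 lower in SR than in CR (median 0.10). The glucose transporter SLC2A3 had 44.1, 39.2 and 40.0 CPM in SR, 13.8, 13.4 and 13.2 CPM in CR and 34.5, 35.6 and 36.4 CPM in vehicle libraries, and SLC2A1, a further glucose transporter, was 0.24 higher in SR. HK2, a hexokinase, was 1.39 lower in SR than in CR, and rose by 1.71 in CR cells against vehicle. NRF2 targets were 4 higher and 7 lower in SR of 25; HMOX1, heme oxygenase, had 286, 278 and 304 CPM in SR, 234, 229 and 217 CPM in CR and 164, 159 and 176 CPM in vehicle libraries. Of 26 p53 targets 1 was higher and 6 lower in SR, so most of the called ones were lower. Both directions together lay near the 21.9% of all tested genes called in either direction. CDKN1A, the cell cycle inhibitor p21, rose by 0.57 in SR and 0.84 in CR. Of 31 proteasome subunits 0 were called between SR and CR by edgeR and 0 by DESeq2. By edgeR 0 had an unadjusted p under 0.05 (range -0.12 to 0.13). Against vehicle 9 fell in SR cells and 10 in CR cells, where 10.9% and 16.7% of all tested genes fell. Of 51 cytosolic ribosomal protein genes 0 were higher and 2 lower in SR than in CR (median -0.19). Against vehicle 38 rose in CR cells and 2 in SR cells, where 18.5% and 13% of all tested genes rose. The same list had a median of -0.15 between the Pinelliae Tuber and Zizyphi Fructus extracts that carry the same code numbers.

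The remaining genes with the largest negative difference rose with CR, and some rose with SR as well. NIBAN1, an apoptosis-related gene induced by endoplasmic reticulum stress, had 35.6, 42.9 and 37.7 CPM in SR, 89.6, 102 and 94.5 CPM in CR and 10.8, 11.0 and 8.88 CPM in vehicle libraries. SLFN5, a schlafen family protein, had a mean of 28.3 ± 1.59 CPM in SR, 75.8 ± 0.882 CPM in CR and 15.1 ± 0.302 CPM in vehicle libraries (SD, n = 3 each). BEX2 had 3.53, 3.21 and 3.51 CPM in SR, 8.81, 9.99 and 10.1 CPM in CR and 0.623, 0.745 and 0.671 CPM in vehicle libraries. In these 3 genes SR lay between CR and vehicle without overlap. UNC5B, a netrin receptor, rose in CR cells by 2.32 and stood at 0.49 (adjusted p = 0.0807, edgeR) in SR cells.

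Hypoxia-inducible genes, lysosomal genes and epithelial genes held members of both signs. Over all tested genes 11.1% were higher and 10.8% lower in SR than in CR. Of 20 hypoxia-inducible genes 11 were higher and 2 lower in SR than in CR (median 0.19). EGLN1, an oxygen-sensing prolyl hydroxylase, had 195, 192 and 192 CPM in SR, 121, 119 and 122 CPM in CR and 193, 192 and 198 CPM in vehicle libraries, so CR alone was low, while NDRG1 was 0.52 lower in SR. Of 29 autophagy and lysosome genes 12 were higher and 3 lower in SR (median 0.13), among them NPC1, the lysosomal cholesterol exporter, at 0.56 higher and the autophagy receptor SQSTM1 at 0.29 lower. Of 15 epithelial genes 5 were higher and 4 lower: ELF3, an epithelial ETS factor, was on opposite sides of vehicle (0.49 in SR and -0.19 in CR), and OCLN, a tight junction protein, rose by 0.61 in SR and by 1.40 in CR. Among 17 genes of FOXO and insulin signalling 4 were higher and 2 lower in SR, with PDK4, which restrains pyruvate oxidation, 1.08 higher. Of 25 genes of MYC and ribosome biogenesis 0 were higher and 15 lower in SR than in CR (median -0.17), with 1 risen and 8 fallen in SR cells and 9 risen and 1 fallen in CR cells against vehicle.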

How the data were processed

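RNA of A549 cells was turned into directional mRNA libraries read as 100-base pairs, per the labels' protocols. Tools named in the submitters' processing notes are STAR 2.7.3a, RSEM 1.3.3, Trim Galore 0.6.5 and FastQC 0.11.9, with the build GRCh38 (hg38). The table deposited by the authors holds estimated counts for Ensembl genes without normalisation, judged from its values, of which 9.06% are not whole. Neither annotation release nor strand setting was given in the sources used here, so reads of overlapping and antisense genes cannot be told apart. Of 269 columns 60 match labelled samples and the other 209 were not used. Library totals were 17420373.0 to 36479629.0. A current name table gave symbols for 41209 of 60675 identifiers and GENCODE 29 for 15846; 3620 (0.0579% of counts) stayed without one.

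Counts were rounded. edgeR 4.0.16 under R 4.3.3 with limma 3.58.1 (TMM, filterByExpr by group, robust quasi-likelihood fit) was run on all 60 libraries in 20 groups, which pools the spread over 40 residual degrees of freedom (biological coefficient of variation 7.04%, 17129 genes). A gene was called at a Benjamini-Hochberg adjusted p under 0.05 in that comparison. CPM values use TMM library sizes, except the sums of marker genes and the counts of genes under 1 CPM, which use plain library totals. A standard error is the log2 fold change over the square root of F. Opposite genes had to be called between the extracts and in both vehicle contrasts with opposite signs. Replicates of a group correlated at 0.982 or more on log2 CPM, and 0 libraries were identical. In simulated counts for SR against CR at the high dose (16651 genes) 59.2% of 1.5-fold and 76.8% of 2-fold changes were recovered, with 7 other genes called. The simulation held only the groups compared here, drawn from a common mean, with changes placed in SR high alone. It was fitted on those groups, so these shares are not the power of the fit on 60 libraries.

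The comparison and the gene lists were chosen with earlier results of these data known. Named genes are the 12 called genes with the largest difference in each direction (mean log2 CPM of at least 1, groups not overlapping), the 10 opposite genes of each pattern with the largest smaller change, the 4 members of each list with the smallest p with up to 2 of the other direction, and a fixed panel; others are marked where they are named. Alternatives were DESeq2 1.42.0, its size factors, no filter, a fit on the groups concerned, a replicate block, leaving out each library, requiring 0.5 on the log2 scale for opposite genes, a transcript length covariate and, added after the data were seen, library sizes without the mitochondrial genome. Some genes that this rule takes are not reported here.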

Additional observations from a re-analysis of the deposited data

Results flagged for a closer look

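The effect of the high against the low dose differed between the extracts for 1556 genes by a test of the difference itself (edgeR, adjusted p under 0.05). Among named genes not called between SR and CR at the high dose, 6 had such a difference. TRIB3 rose by 2.39 on the log2 scale between low and high dose with SR and by 0.91 with CR, a difference of 1.47. GDF15, a stress-induced cytokine, rose by 1.42 with SR and by 0.78 with CR, a difference of 0.64 (adjusted p = 0.00026, edgeR). XBP1 had a difference of 0.63 (adjusted p = 0.000322, edgeR) and ERN1 of 0.50 (adjusted p = 0.00179, edgeR). For these 4 genes every low-dose CR library stood above every low-dose SR library. HSF1 had a difference of 0.26 (adjusted p = 0.0362, edgeR), and PSMD11, a proteasome subunit that fell with both extracts, had one of -0.15 (adjusted p = 0.0386, edgeR).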

How the results depend on the processing

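Counts of called genes for SR against CR at the high and the medium dose, for each extract against vehicle and for CR high against low stayed within 1.5 times under every alternative run. Fitting only the groups concerned gave 287 genes for SR against CR at the low dose, in place of 1108. A transcript length covariate gave 1766 genes there, 5331 for SR high against low, 2536 for the difference of dose effects, 296 opposite to vehicle and 280 opposite to the own low dose. Requiring 0.5 on the log2 scale in both extracts left 23 and 15. Pinelliae Tuber against Zizyphi Fructus had 111 genes without a filter and 3 with DESeq2. Leaving out 1 library gave 2961 to 3210 genes for SR against CR, 3073 to 3752 for SR and 5092 to 5492 for CR against vehicle, 2399 to 3231 at the medium and 637 to 972 at the low dose, 2780 to 2935 for SR and 3075 to 4172 for CR high against low, 1172 to 1596 for the difference, 99 to 139 opposite to vehicle and 117 to 152 opposite to the own low dose. The cause of these shifts was not tested. Library sizes without the mitochondrial genome gave 3770 genes between SR and CR.

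Same-numbered replicates did not deviate together (r between -0.116 and 0.108); with the replicate number as a block 3727 genes were called between SR and CR, 3700 of them shared, and 152 were opposite to vehicle. Of 2686 alternative values for 224 named genes 75 lost their call and 5 changed sign, all of genes not called: GGPS1, at -0.10 to 0.00 with 1 library left out, and XBP1, at -0.04 to 0.09 with 1 library left out and -0.01 with the length covariate. The 3 libraries of each group limit the precision of genes at a few CPM, such as FOSB and DGAT2.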
